A study of Rattus norvegicus with 16 samples.

Results

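The growth hormone and insulin-like growth factor (IGF) genes of the liver were defined as 9 symbols: the growth hormone receptor Ghr, the transcription factor Stat5b, the inhibitor Socs2, the ligand Igf1, its carrier Igfals and the binding proteins Igfbp1, Igfbp2, Igfbp3 and Igfbp4. Members were taken by symbol, from a list written with earlier results of these data known, and 8 of the 9 had a row among the 22587 symbols of the deposited table. Socs2 was not analysed here. All 8 passed the filter on low values, a mean normalized count of at least 14.7 over all libraries, which left 12791 genes to test.

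Growth hormone from the pituitary binds its receptor on hepatocytes and acts through the kinase JAK2 and the factor STAT5b, which drives transcription of Igf1 and Igfals. IGF-I leaves the liver bound to proteins. Most of it circulates with IGFBP3 and the acid-labile subunit encoded by Igfals, while IGFBP1 and IGFBP2 bind it in smaller complexes and are known to be raised in rat liver by fasting and lowered by insulin. In rat liver the male or female pattern of growth hormone pulses also sets the level of several cytochrome P450 genes.

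Liver mRNA of male rats of the strain given as Wistar-Wyoto, aged 13 weeks, was sequenced in 16 libraries. The groups of 4 libraries each were ADREX rats (total bilateral adrenalectomy, surgical removal of both adrenal glands) after ozone at 0.8 ppm, numbered 81 to 84, ADREX rats after air, numbered 65 to 68, SHAM (sham-operated) rats after ozone, numbered 17 to 20, and SHAM rats after air, numbered 1 to 4. Exposure lasted 4 hours, and ozone is an oxidant gas that irritates the airways. Removing both glands takes away adrenal glucocorticoids, aldosterone and adrenaline together, and the labels state no hormone replacement. The labels' treatment field gives ozone for the 4 ADREX libraries titled air. The titles were followed, so every statement on ADREX air rests on them. The labels do not say that each library is a separate animal. The p-values therefore weigh group differences against the spread between these libraries, which need not be the spread between animals.

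Libraries held 8372891 to 14096246 recovered reads. The tissue label was checked with 10 hepatocyte markers, all of which had reads. Their summed level was 105357 to 217224 reads in 1000000 (RPM) in ADREX ozone, 126598 to 165580 in ADREX air, 150285 to 171111 in SHAM ozone and 156300 to 225805 in SHAM air. Its mean was 140601 RPM in ADREX air and 189234 in SHAM air, with overlapping ranges, and its part in the results was not tested. Alb was the largest part of this sum, at 62367 to 93066 RPM in ADREX air and 87763 to 148630 in SHAM air. The markers did not move alike: Apoa1 was at 1995 to 3288 RPM in ADREX air and 350 to 1439 in SHAM air. All 25 markers of neurons and oligodendrocytes, cells of nervous tissue, also had reads in each group. Their summed level was 833 to 4813 RPM in ADREX ozone, 279 to 1223 in ADREX air, 78.9 to 2951 in SHAM ozone and 45.5 to 859 in SHAM air. ADREX ozone 82, SHAM ozone 18 and ADREX ozone 81 were highest and are called the 3 neural-rich libraries. Calls that change when this sum is a covariate, or when those 3 libraries are left out, are given with each gene, and the other calls held in both fits. All 3 are ozone libraries, so leaving them out changes no air difference, only the spread pooled over groups and the adjustment over genes. Under ozone that fit has fewer libraries and less power, so a call lost there cannot be tied to neural transcripts. Where the neural marker transcripts came from was not tested. In bulk liver, fewer cells of a type and less RNA per cell cannot be told apart.

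Some of these genes passed the test between ADREX and SHAM livers, and none passed it for ozone against air. In air, 5 of the 8 passed the test between ADREX and SHAM livers: Igfbp2, Igfbp1 and Igfbp4 rose in ADREX, by 24.3-fold, 4.48-fold and 1.87-fold, and Igfbp3 and Igf1 were lower, by 2.17-fold and 1.74-fold. Of all genes tested, 3.53% passed in air, 1.49% higher and 2.03% lower. Under ozone, 4 of the 8 passed, against 12.5% of all genes (6.04% higher, 6.48% lower): Igfbp2 and Igfbp1 were higher by 19.4-fold and 2.99-fold, and Igfbp3 and Igf1 were lower by 3.16-fold and 1.63-fold. None passed for ozone against air in ADREX (0.125% of all genes), for ozone against air in SHAM (1.58%) or for the difference between these ozone effects (0.109%). The threshold was an adjusted p under 0.05 from limma over all genes tested, and folds are on the scale of log2(normalized count + 1). The median log2 change of the 8 genes between ADREX and SHAM was -0.52 in air and -0.10 under ozone, beside 0.04 and 0.11 for all genes tested.

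**Figure D1:**
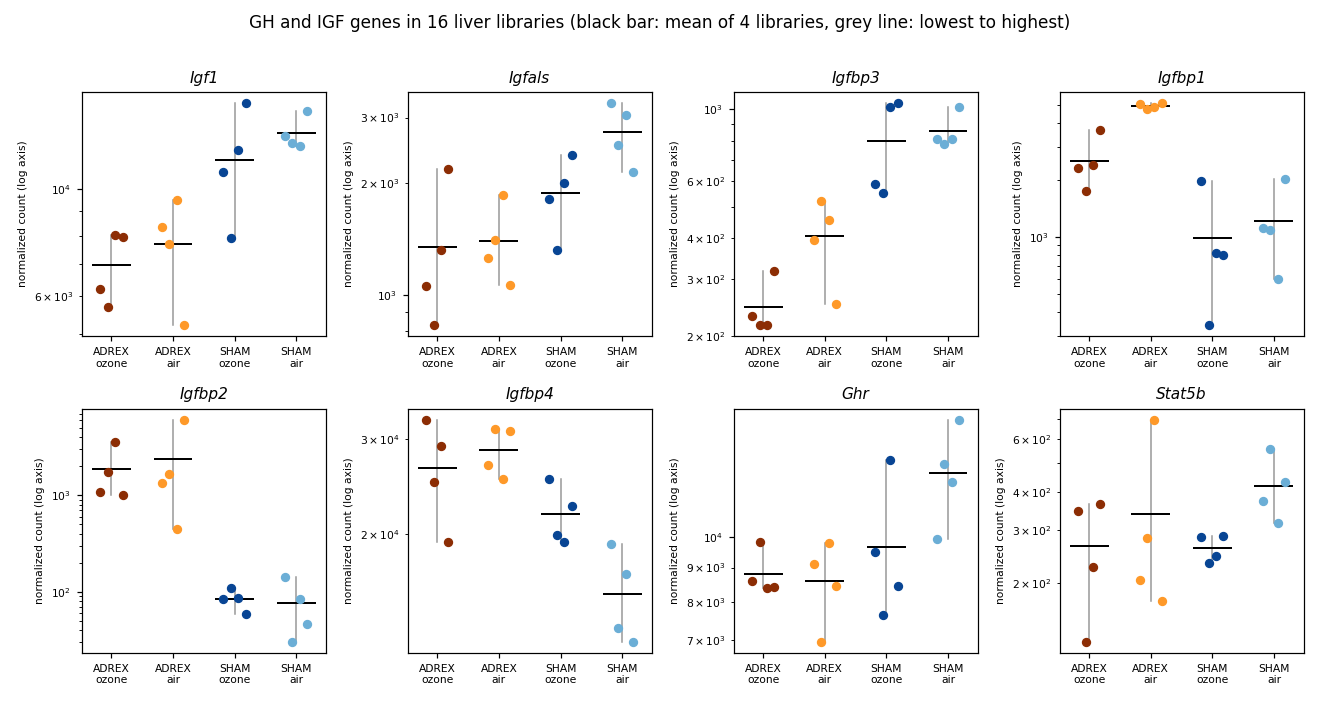
Normalized count (log axis) of the 8 genes in each library, 1 panel a gene, with ADREX ozone, ADREX air, SHAM ozone and SHAM air from left to right; points are libraries, black bars are means of 4 and grey lines run from the lowest to the highest library. All 8 ADREX libraries lie above all 8 SHAM libraries in Igfbp2 and below them in Igfbp3, while in Igfbp1 the lowest ADREX ozone library (1742) lies below the highest SHAM ozone and SHAM air libraries (1973 and 2027).

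**Figure D2:**
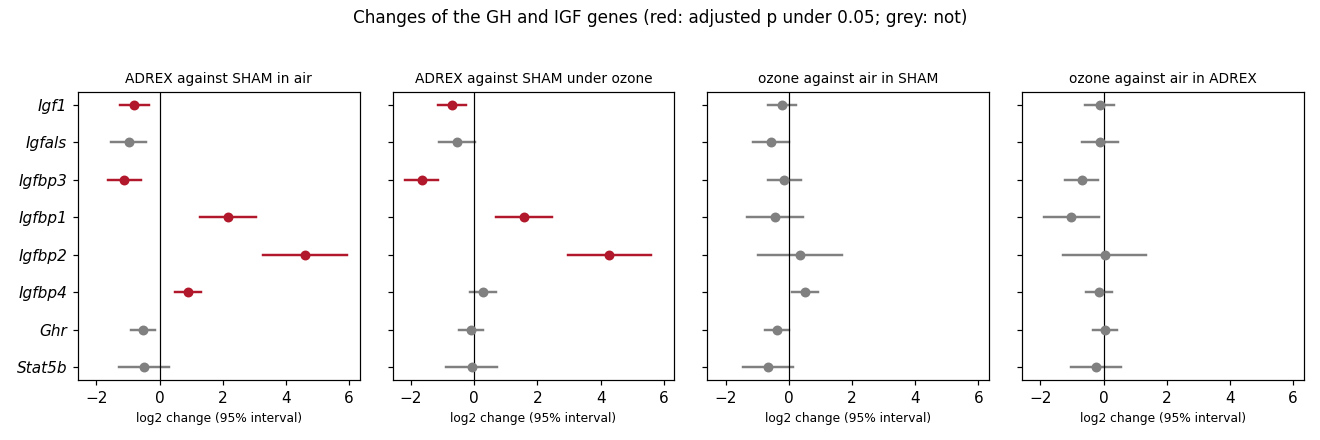
Log2 change (point) with its 95% interval (line) for the 8 genes in 4 comparisons, 1 panel each; red marks an adjusted p under 0.05 and grey a higher one. Red points stand in both ADREX panels only, 5 in air and 4 under ozone.

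Sequence upstream of the 4 genes with a change in both ADREX comparisons is shown because Igfbp1 and Igfbp3 are neighbours on the rat genome that changed in opposite directions. In the RefSeq annotation of GRCr8, Igfbp1 lies on the plus strand of chromosome 14 and Igfbp3 on the minus strand next to it, with no protein-coding gene between them. Each run is the 250 bases before the annotated start, 5′ to 3′ on the gene's strand, from RefSeq GRCr8. Capitals mark matches to 4 short motifs, searched on both strands: the insulin response element unit CAAAANA, the glucocorticoid receptor hexamer AGAACA, the STAT5 site TTCNNNGAA and the TATA box TATAAA. All 8 genes matched the promoter table by symbol.
Igfbp1, chr14:86261027-86261276, plus strand: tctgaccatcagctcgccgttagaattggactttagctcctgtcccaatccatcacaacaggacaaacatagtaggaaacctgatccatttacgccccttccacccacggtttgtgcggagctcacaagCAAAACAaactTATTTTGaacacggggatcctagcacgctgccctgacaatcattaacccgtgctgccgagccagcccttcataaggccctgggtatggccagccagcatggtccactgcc
Igfbp3, chr14:86277945-86278194, minus strand: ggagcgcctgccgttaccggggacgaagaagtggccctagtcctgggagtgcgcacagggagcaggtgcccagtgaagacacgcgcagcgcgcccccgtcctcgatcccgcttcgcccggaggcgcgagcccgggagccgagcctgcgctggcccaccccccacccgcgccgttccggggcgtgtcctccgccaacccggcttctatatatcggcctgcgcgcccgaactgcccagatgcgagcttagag
Igf1, chr7:24172282-24172531, plus strand: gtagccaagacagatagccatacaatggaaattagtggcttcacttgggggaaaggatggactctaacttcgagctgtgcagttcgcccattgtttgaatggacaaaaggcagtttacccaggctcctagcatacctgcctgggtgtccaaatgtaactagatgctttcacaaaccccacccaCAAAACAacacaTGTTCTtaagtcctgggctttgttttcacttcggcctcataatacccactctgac
Igfbp2, chr9:81864561-81864810, plus strand: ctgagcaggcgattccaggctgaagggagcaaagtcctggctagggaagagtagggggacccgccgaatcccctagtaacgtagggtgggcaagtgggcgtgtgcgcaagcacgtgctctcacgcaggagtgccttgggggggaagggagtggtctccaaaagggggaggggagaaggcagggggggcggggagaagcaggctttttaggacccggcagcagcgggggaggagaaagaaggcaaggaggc

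The Igfbp1 run holds 2 insulin response element units facing each other, the first from position -121 and its reverse complement from position -110, with 4 bases between them. That inverted pair with this gap was found in 4 of 33469 rat promoter windows of 300 bases (250 before and 50 after the start), or 0.012%. The gap searched was that of the Igfbp1 pair, so the Igfbp1 window is 1 of these 4, and pairs with other gaps were not counted. At least 1 unit was found in 19.5% of windows and 2 or more units in 3.46%. Such a pair is known in the Igfbp1 promoter as the element through which insulin lowers its transcription. The Igf1 run holds 1 unit from position -67 and 1 glucocorticoid receptor hexamer, as its reverse complement, from position -55. The hexamer was found in 20.7% of windows. None of the 4 motifs was found in the windows of Igfbp2, Igfbp3, Igfals or Stat5b. The window of Ghr holds 1 hexamer and 1 unit, and that of Igfbp4 holds a TATA box, which 14.2% of windows do. The STAT5 site was found in 8.87% of all windows and in none of the 8 genes' windows. These matches describe letters in the window and do not show that a factor binds there. Base composition also differed, with 52.8% G and C in the Igfbp1 run and 71.6% in the Igfbp3 run.

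Ghr, the receptor, averaged 8801 ± 689 normalized counts in ADREX ozone, 8577 ± 1214 in ADREX air, 9660 ± 2387 in SHAM ozone and 12470 ± 2084 in SHAM air (SD, n = 4 each). Libraries in air were 9115, 6961, 9802 and 8431 in ADREX and 9947, 12870, 12073 and 14989 in SHAM. All 4 ADREX air libraries were below the lowest SHAM air library, by a narrow gap, but the log2 difference of -0.54 ± 0.18 (SE) did not pass (adjusted p = 0.116). DESeq2 on the recovered reads gave an adjusted p of 0.0404. Under ozone the difference between ADREX and SHAM was -0.11 ± 0.18 (adjusted p = 0.725). From highest to lowest the group means ran SHAM air, SHAM ozone, ADREX ozone, ADREX air, and no compared pair passed the test.

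Stat5b, the transcription factor downstream of the receptor, was at 347, 128, 226 and 366 normalized counts in ADREX ozone and at 205, 282, 695 and 175 in ADREX air. It was at 285, 232, 246 and 286 in SHAM ozone and at 375, 557, 316 and 433 in SHAM air. The ADREX groups were wide, 3.98-fold between the lowest and highest ADREX air library, and the SHAM ozone libraries were close together and all below the SHAM air libraries. That ozone difference in SHAM was -0.65 ± 0.38 on the log2 scale (adjusted p = 0.361), and ADREX against SHAM was -0.51 ± 0.38 in air (adjusted p = 0.453) and -0.09 ± 0.38 under ozone (adjusted p = 0.899). No comparison of Stat5b passed. Stat5b and its neighbour Stat5a are close paralogs, so the split of reads between them by the authors' counting is uncertain.

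Igf1, the ligand, was at 6195, 5681, 8022 and 7976 normalized counts in ADREX ozone and at 10885, 7932, 12068 and 15121 in SHAM ozone. In air it was at 8347, 7677, 9483 and 5215 in ADREX and at 12889, 12478, 12334 and 14580 in SHAM. The air groups did not overlap, and under ozone SHAM ozone 18, the SHAM library with the highest neural marker sum, fell within the ADREX range. Igf1 fell in ADREX livers by a log2 change of -0.80 ± 0.21 in air (adjusted p = 0.0486) and -0.70 ± 0.21 under ozone (adjusted p = 0.0408). Means were 6969 ± 1208 in ADREX ozone, 7680 ± 1805 in ADREX air, 11501 ± 2975 in SHAM ozone and 13070 ± 1034 in SHAM air (SD, n = 4 each). Within ADREX and within SHAM the ozone and air groups overlapped, with log2 changes of -0.12 ± 0.21 (adjusted p = 0.810) and -0.22 ± 0.21 (adjusted p = 0.595).

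Both Igf1 calls lay near the threshold, and the test passed in 11 of 27 alternatives in air and 14 of 27 under ozone. Leaving out a library outside a comparison changes only the pooled spread and the adjustment, not the log2 change. The call in air was lost without any 1 of 10 of the 16 libraries (adjusted p up to 0.147, without ADREX air 68) and held without SHAM air 3, SHAM ozone 18, SHAM ozone 20, ADREX air 67, ADREX ozone 82 or ADREX ozone 84. Under ozone it was lost without any 1 of 9 (adjusted p up to 0.138, without SHAM ozone 20) and held without SHAM air 3, SHAM air 4, SHAM ozone 18, ADREX air 65, ADREX air 67, ADREX air 68 or ADREX ozone 84. With the neural marker sum as a covariate the log2 changes were -0.55 in air (adjusted p = 0.178) and -0.45 under ozone (adjusted p = 0.156). With ADREX ozone 82, SHAM ozone 18 and ADREX ozone 81 left out, the adjusted p was 0.0348 in air and 0.144 under ozone. The air log2 change stayed at -0.80 in that fit, since no air library was left out.

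Igfals, which encodes the acid-labile subunit that holds IGF-I and IGFBP3 in the large circulating complex, was at 1258, 1409, 1854 and 1068 normalized counts in ADREX air and at 3281, 2531, 3046 and 2139 in SHAM air. The highest ADREX air library was below the lowest SHAM air library. The log2 difference was -0.99 ± 0.27 and missed the threshold (adjusted p = 0.0508). Under ozone Igfals was at 1056, 831, 1319 and 2183 in ADREX and at 1812, 1322, 2004 and 2379 in SHAM. These groups overlapped through ADREX ozone 84, and the log2 difference was -0.54 ± 0.27 (adjusted p = 0.174). The air difference passed in 10 of 27 alternatives, with DESeq2 among them (adjusted p = 0.0182), and the difference under ozone in 2 of 27. Without ADREX ozone 84 it passed in both comparisons, with adjusted p = 0.0187 in air and 0.0376 under ozone. In air Igfals also passed without the 3 neural-rich libraries (adjusted p = 0.0250), with the same log2 difference. With the neural marker covariate the air log2 difference was -0.74 (adjusted p = 0.174).

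Igfbp3, the main carrier of IGF-I in blood, fell in ADREX livers in air and under ozone. Under ozone it was at 230, 216, 216 and 318 normalized counts in ADREX and at 587, 553, 1013 and 1046 in SHAM. In air it was at 395, 522, 456 and 251 in ADREX and at 810, 782, 813 and 1019 in SHAM. No ADREX library reached the lowest SHAM library in either condition. The log2 change was -1.66 ± 0.25 under ozone (adjusted p = 0.000846), a call kept in all 27 alternatives, and -1.12 ± 0.25 in air (adjusted p = 0.0197). The air call was lost without SHAM air 4 (adjusted p = 0.0714), without ADREX air 68 (0.0629) and with the neural marker covariate (0.0735).

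Within ADREX, Igfbp3 averaged 245 ± 49.2 normalized counts after ozone and 406 ± 116 after air (SD, n = 4 each), a log2 change of -0.70 ± 0.25 that did not pass (adjusted p = 0.183). The difference between the ozone effects in ADREX and SHAM was -0.54 ± 0.35 (adjusted p = 0.514). In rat liver Igfbp3 is made mainly by cells other than hepatocytes. The 8 sinusoidal endothelial markers with a row, of 9 listed, summed to 257 to 397 RPM in ADREX ozone, 297 to 664 in ADREX air, 246 to 416 in SHAM ozone and 412 to 472 in SHAM air. The 8 stellate markers summed to 221 to 320 RPM in ADREX ozone, 277 to 547 in ADREX air, 257 to 447 in SHAM ozone and 427 to 486 in SHAM air. The 8 markers of Kupffer cells, the liver's macrophages, summed to 638 to 1281 RPM in ADREX ozone, 589 to 1238 in ADREX air, 516 to 723 in SHAM ozone and 514 to 673 in SHAM air. The ranges of these 3 lists overlapped between ADREX and SHAM in air and under ozone, but their means differed. The Kupffer mean was higher in ADREX, at 930 RPM against 599 under ozone and 895 against 588 in air. The stellate mean was lower, at 276 against 363 under ozone and 392 against 461 in air. The endothelial mean was 328 against 342 under ozone and 439 against 456 in air. The 5 markers of cholangiocytes, the bile duct cells, summed to 13.4 to 20.2 RPM in ADREX ozone, 15.3 to 21.9 in ADREX air, 10.7 to 18.1 in SHAM ozone and 5.14 to 9.49 in SHAM air. All 4 ADREX air libraries were above all 4 SHAM air libraries in this sum, and the ranges under ozone overlapped. Every marker with a row had reads in each group, and the part of these cells in the changes of Igfbp3 and the other members was not tested.

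Igfbp1, a short-lived binding protein of hepatocytes that insulin lowers and glucocorticoids are known to raise in rat liver cells, was higher in ADREX livers. In air it was at 5051, 4733, 4867 and 5108 normalized counts in ADREX and at 1119, 1087, 595 and 2027 in SHAM. The ADREX air libraries were within 1.08-fold of each other, while the SHAM air libraries spanned 3.41-fold. The log2 change was 2.16 ± 0.42 (adjusted p = 0.00893), a call kept in all 27 alternatives. Under ozone Igfbp1 was at 2320, 1742, 2386 and 3664 in ADREX and at 1973, 340, 819 and 801 in SHAM. Of the 4 ADREX ozone libraries, 3 were above every SHAM ozone library, and ADREX ozone 82 was below SHAM ozone 17. The log2 change was 1.58 ± 0.42 (adjusted p = 0.0218).

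The Igfbp1 call under ozone was lost without SHAM ozone 20 (adjusted p = 0.0564), without ADREX ozone 84 (0.0536), without the 3 neural-rich libraries (0.0871), with edgeR (0.0712) and in a fit of the 2 groups alone (0.0519). Within ADREX, all 4 ozone libraries were below all 4 air libraries, with means of 2528 ± 811 after ozone and 4940 ± 172 after air (SD, n = 4 each). This log2 difference of -1.02 ± 0.42 did not pass (adjusted p = 0.228). Among all genes tested, 9.97% had ozone and air libraries that did not overlap in ADREX. In SHAM the ozone difference was -0.43 ± 0.42 (adjusted p = 0.591), and the difference between both ozone effects was -0.58 ± 0.59 (adjusted p = 0.695).

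Igfbp2, a binding protein abundant in fetal rat liver and low in the adult, had the largest fold of the 8 genes in both ADREX comparisons. Under ozone it was at 1078, 1754, 3581 and 1005 normalized counts in ADREX and at 83.04, 109, 86.0 and 59.0 in SHAM. In air it was at 1340, 1685, 450 and 6102 in ADREX and at 143, 30.03, 83.8 and 46.2 in SHAM. The lowest ADREX library, ADREX air 67, stood above the highest SHAM library, SHAM air 1. Means were 1855 ± 1199 in ADREX ozone, 2394 ± 2526 in ADREX air, 84.2 ± 20.4 in SHAM ozone and 75.7 ± 50.1 in SHAM air (SD, n = 4 each). Spread within ADREX air was 13.6-fold between ADREX air 67 and ADREX air 68. The log2 change was 4.28 ± 0.63 under ozone (adjusted p = 0.000772) and 4.60 ± 0.63 in air (adjusted p = 0.000906), and both calls were kept in all 27 alternatives. Ozone against air gave 0.03 ± 0.63 in ADREX (adjusted p = 0.984) and 0.36 ± 0.63 in SHAM (adjusted p = 0.783).

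Igfbp4, which binds IGF-I and is known mainly to hold back its action, was at 26884, 31351, 25348 and 31107 normalized counts in ADREX air and at 19176, 13388, 16815 and 12599 in SHAM air. These groups did not overlap, and Igfbp4 rose by a log2 change of 0.90 ± 0.19 (adjusted p = 0.0163). The call was lost without SHAM air 2 (adjusted p = 0.0585), SHAM air 4 (0.0650) or ADREX air 66 (0.0555), without the filter on low values (0.0565), in a fit of the 2 groups alone (0.0511) and with the neural marker covariate (0.0552). Under ozone Igfbp4 was at 32603, 24972, 29123 and 19307 in ADREX and at 25298, 19945, 19316 and 22575 in SHAM. These overlapped, and the log2 difference was 0.26 ± 0.19 (adjusted p = 0.363).

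Within SHAM all 4 ozone libraries of Igfbp4 were above all 4 air libraries, with means of 21783 ± 2736 after ozone and 15495 ± 3062 after air (SD, n = 4 each). The log2 difference was 0.50 ± 0.19 and did not pass (adjusted p = 0.188); with array quality weights, which give deviating libraries less weight, the adjusted p was 0.0489. Within ADREX it was -0.13 ± 0.19 (adjusted p = 0.765). The difference between these ozone effects, -0.64 ± 0.27, did not pass either (adjusted p = 0.338). The order of group means, from high to low, was ADREX air, ADREX ozone, SHAM ozone, SHAM air, and of the compared pairs the test passed for ADREX air against SHAM air.

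For the 3 comparisons without a call, edgeR and DESeq2 on the recovered reads also called none of the 8 genes. The shares of all genes that edgeR called were 0.383% for ozone in ADREX, 1.38% for ozone in SHAM and 0.188% for the difference. In the same order, DESeq2 called 4.46% of 12777, 4.45% of 12033 and 2.3% of 10798 genes to which it gave an adjusted p. Of the 8 genes, those at an unadjusted limma p under 0.05 numbered 2 for ozone in ADREX (Igfbp1 and Igfbp3), 1 for ozone in SHAM (Igfbp4) and 1 for the difference (Igfbp4). The shares of all genes tested were 17.8%, 18.4% and 12.9%. ADREX and SHAM libraries did not overlap in 7 of the 8 genes in air, 3 higher and 4 lower, against 9.26% of all genes tested (4.24% higher, 5.03% lower), and in 2 of the 8 under ozone, 1 higher and 1 lower, against 20.5% (10.6% higher, 9.94% lower). At an unadjusted p under 0.05, 7 of the 8 passed in air, against 20.2% of all genes tested, and 4 of the 8 under ozone, against 31.2%. Ozone and air libraries did not overlap in 2 of the 8 in SHAM, against 11.1%. The 2 ADREX comparisons share no library, but the model pools the spread over all groups, so their p-values are not independent. Each also shares libraries with an ozone comparison.

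**Figure D3:**
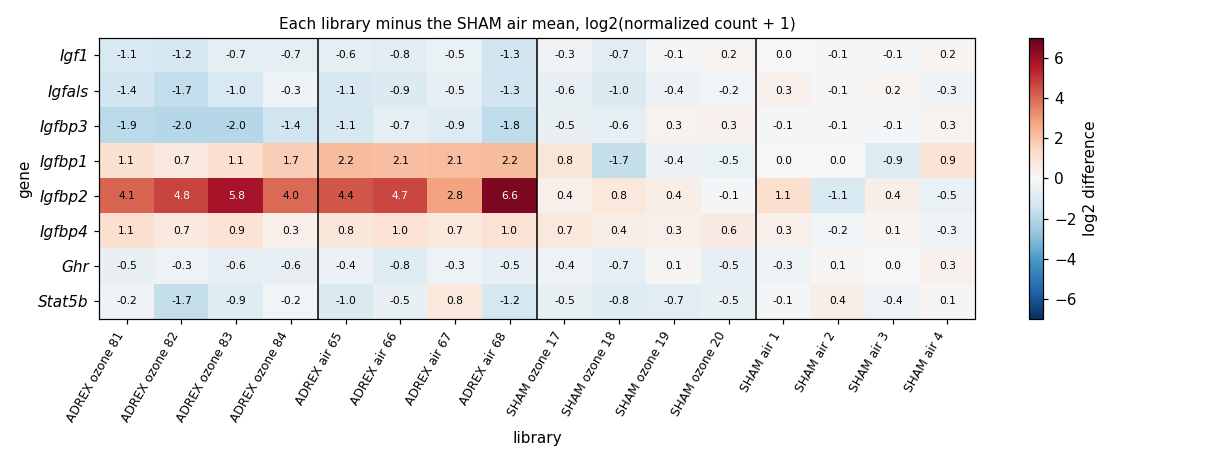
Log2(normalized count + 1) of each library (columns, ADREX ozone, ADREX air, SHAM ozone and SHAM air from left to right) minus the SHAM air mean, for the 8 genes (rows); red is higher and blue lower, and each cell gives the value. The Igfbp2 row reaches 6.6 in ADREX air 68, and ADREX air 68 is also the lowest of its group in Igf1, Igfals, Igfbp3 and Stat5b.

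ADREX air 68 was the highest ADREX air library in Igfbp2 and the lowest in Igf1, Igfals, Igfbp3 and Stat5b. It also had the highest neural marker sum of its group, at 1223 RPM. ADREX air 67 was the highest of its group in Igf1, Igfals, Ghr and Stat5b and the lowest in Igfbp2, with the lowest neural marker sum, 279 RPM. Its Igfbp3 count lay second to that of ADREX air 66. ADREX air 66 had a similar neural marker sum, 288 RPM, with Igfbp2 at 1685 normalized counts against 450 in ADREX air 67. With group means taken out, Pearson's r with the log2 neural marker sum was -0.73 for Igf1, -0.63 for Igfbp1, -0.55 for Igfals and -0.53 for Stat5b. It was -0.50 for Igfbp3, 0.02 for Igfbp4, 0.05 for Ghr and 0.37 for Igfbp2, and was not tested.

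Of 15 other genes of growth hormone signalling, from the kinase Jak2 to the feedback inhibitor Cish, 14 had a row and 13 were tested. None of the 13 passed for ozone against air or between ADREX and SHAM in air, where 3.53% of all genes tested did. Under ozone 1 of the 13 passed between ADREX and SHAM, beside 12.5% of all genes: Ptpn6, a phosphatase also abundant in blood cells. It averaged 290 ± 46.0 normalized counts in ADREX ozone and 183 ± 27.8 in SHAM ozone (SD, n = 4 each; log2 change 0.66 ± 0.19, adjusted p = 0.0301). The Ptpn6 call was lost without SHAM ozone 19, SHAM ozone 20, ADREX ozone 81, ADREX ozone 83 or ADREX ozone 84, with adjusted p between 0.0501 and 0.0847, and without the 3 neural-rich libraries (0.133). The median log2 change of the list was -0.02 in air and -0.03 under ozone, beside 0.04 and 0.11 for all genes.

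Of 15 other IGF system genes (ligand, receptors, further binding proteins and proteases), 15 had a row and 10 were tested. None of the 10 passed for ozone against air or between ADREX and SHAM in air, where 3.53% of all genes tested did. Under ozone 3 of the 10 passed between ADREX and SHAM, 2 higher and 1 lower, beside 12.5% of all genes. The median log2 change of the list was 0.39 in air and 0.48 under ozone, beside 0.04 and 0.11 for all genes. Insr, the insulin receptor, fell: it was at 1946, 1186, 1630 and 1926 normalized counts in ADREX ozone and at 2887, 3244, 2948 and 3079 in SHAM ozone, without overlap. The log2 change was -0.89 ± 0.16 (adjusted p = 0.00259) and the call was kept in all 27 alternatives. In air Insr averaged 2583 ± 281 in ADREX and 3074 ± 361 in SHAM (SD, n = 4 each), which did not pass. All 4 ADREX ozone libraries of Igfbp5 and Igfbp7 were above the SHAM ozone libraries, as in 10.6% of all genes tested. Neither passed (adjusted p = 0.0734 and 0.0818). After ozone in ADREX, Igfbp5 was higher and Insr lower without overlap, beside 9.97% of all genes (adjusted p = 0.151 and 0.096). In SHAM, Igf1r was higher after ozone without overlap, beside 11.1% (adjusted p = 0.522).

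Stc1, a secreted inhibitor of the protease that cuts IGFBP4, averaged 46.4 ± 10.4 normalized counts in ADREX ozone and 14.5 ± 6.47 in SHAM ozone (SD, n = 4 each; log2 change 1.68 ± 0.41, adjusted p = 0.0141). Igf2, a growth factor of fetal liver, averaged 95.04 ± 40.9 in ADREX ozone and 32.2 ± 25.7 in SHAM ozone (log2 change 1.71 ± 0.54, adjusted p = 0.0489). The Stc1 call was lost without SHAM ozone 17 (adjusted p = 0.0501) or SHAM ozone 20 (0.0514). The Igf2 call was lost without any 1 of 12 libraries and held without SHAM air 3, SHAM ozone 18, ADREX air 67 or ADREX ozone 83; with the neural marker covariate its log2 change was 0.87 (adjusted p = 0.127). Without the 3 neural-rich libraries neither passed (adjusted p = 0.0935 for Stc1 and 0.144 for Igf2).

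Among 15 genes whose liver level depends on the male or female pattern of growth hormone, 11 had a row and 9 were tested, and 3 passed between ADREX and SHAM in air, 2 higher and 1 lower, beside 3.53% of all genes. The median log2 change of the list was 0.06 in air and 0.32 under ozone, beside 0.04 and 0.11 for all genes. Cyp2c11, the male-specific steroid hydroxylase, fell to 11044, 6023, 30214 and 15593 normalized counts in ADREX air, against 38509, 43795, 40009 and 41105 in SHAM air. All 4 ADREX libraries were lower, and the log2 change was -1.62 ± 0.38 (adjusted p = 0.0281). Cyp2c12, its female-specific counterpart, averaged 208 ± 143 in ADREX air and 49.8 ± 19.6 in SHAM air (SD, n = 4 each; log2 change 1.83 ± 0.47, adjusted p = 0.0439). Cux2, a female-biased transcription factor, averaged 96.5 ± 89.5 in ADREX air and 14.8 ± 9.93 in SHAM air (log2 change 2.46 ± 0.62, adjusted p = 0.0370). Srd5a1 of the same list did not pass, at 2487 ± 1067 in ADREX air and 5912 ± 1846 in SHAM air (log2 change -1.29 ± 0.36, adjusted p = 0.0612). All 4 of its ADREX air libraries were below the SHAM air libraries, as in 5.03% of all genes tested.

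These air calls were sensitive to single libraries. Cyp2c11 did not pass without SHAM air 1, SHAM air 2, SHAM air 4, ADREX air 65, ADREX air 66 or ADREX air 68 (adjusted p 0.0539 to 0.0900), and Cux2 without SHAM air 1, SHAM air 4, SHAM ozone 17, ADREX air 65, ADREX air 66 or ADREX air 68 (0.0519 to 0.134). Cyp2c12 passed without SHAM air 3, ADREX air 67, ADREX ozone 81, ADREX ozone 82 or ADREX ozone 84, and failed without any 1 of the other 11. Among those 11, SHAM ozone 17 to 20 and ADREX ozone 83 (adjusted p 0.0505 to 0.0566) are outside the air comparison. Leaving out an ozone library changes only the pooled spread and the adjustment, not the air difference. With the neural marker covariate none of the 3 passed, with adjusted p = 0.0865 for Cyp2c11, 0.132 for Cyp2c12 and 0.0806 for Cux2. Without the 3 neural-rich libraries Cyp2c11 passed (0.0307), and Cyp2c12 (0.0541) and Cux2 (0.0646) did not. Those 3 are ozone libraries, so the air differences were unchanged and only the pooled spread and the adjustment moved. Over all alternatives the air test passed in 18 of 27 for Cyp2c11, 12 of 27 for Cyp2c12 and 15 of 26 for Cux2.

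Under ozone 3 of the 9 passed, all higher in ADREX, beside 12.5% of all genes tested (6.04% higher). Cyp2c11 did not pass there: it averaged 19733 ± 8647 normalized counts in ADREX ozone and 31521 ± 2366 in SHAM ozone (SD, n = 4 each; log2 change -0.79 ± 0.38, adjusted p = 0.171), and the libraries overlapped. Cyp2c12 averaged 256 ± 137 normalized counts in ADREX ozone and 54.0 ± 19.1 in SHAM ozone (SD, n = 4 each; log2 change 2.17 ± 0.47, adjusted p = 0.00828). Cux2 averaged 112 ± 96.8 in ADREX ozone and 14.1 ± 4.27 in SHAM ozone (log2 change 2.58 ± 0.62, adjusted p = 0.0139). Cyp3a2, which is male-biased in adult rats, averaged 20166 ± 1729 in ADREX ozone and 6059 ± 1416 in SHAM ozone (log2 change 1.76 ± 0.38, adjusted p = 0.00824). Libraries of the 2 groups did not overlap in Cyp2c12, Cux2 or Cyp3a2, nor in Cyp2a1, which was higher in ADREX and did not pass (adjusted p = 0.105). Of all genes tested, 20.5% did not overlap here, 10.6% higher. Each call held without any single library, and none held without the 3 neural-rich libraries (adjusted p 0.0775 to 0.105). None of the 9 passed for ozone against air. In Cyp2c11 all 4 SHAM ozone libraries were below the SHAM air libraries (adjusted p = 0.615), and 11.1% of all genes did not overlap there. The Cyp2c and Cyp3a genes have close paralogs, so the split of reads among them by the authors' counting is uncertain.

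**Figure D4:**
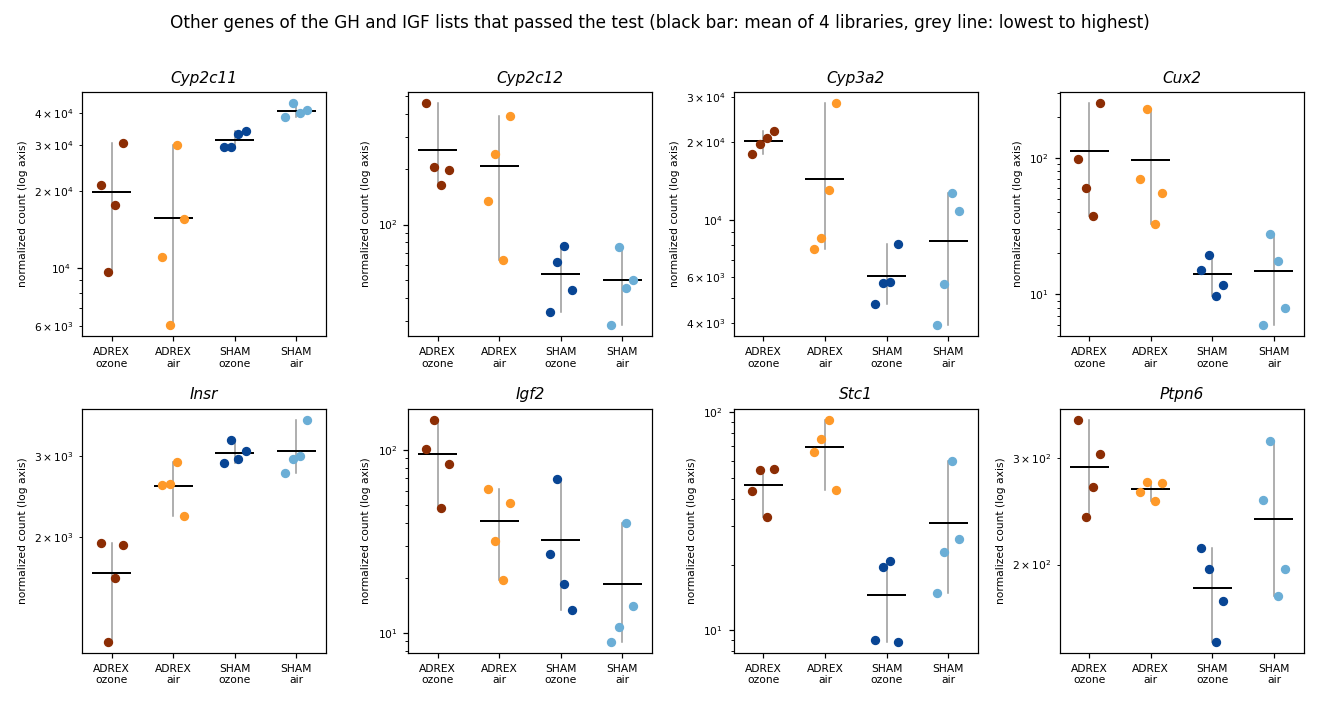
Normalized count (log axis) in each library of the 8 listed genes that passed in a comparison, with ADREX ozone, ADREX air, SHAM ozone and SHAM air from left to right; points are libraries, black bars are means of 4 and grey lines run from the lowest to the highest library. Cyp2c11 is lower in ADREX air (mean 15719) than in SHAM air (mean 40855), and Insr is lower in ADREX ozone (mean 1672) than in SHAM ozone (mean 3040).

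Genes whose pattern over the 16 libraries was most like that of a member were ranked by Pearson's r of log2(normalized count + 1). For Igf1 they were Enpep (r = 0.937), an aminopeptidase, Faah (0.911), an enzyme that breaks down fatty acid amides, and Slc46a1 (0.905), a folate transporter. After the group means were taken out, r was 0.817, 0.698 and 0.799 for these 3. For Igfbp1 they were Myo7b (0.926), a myosin, Enc1 (0.859) and Adcy1 (0.858), an adenylyl cyclase, with 0.748, 0.560 and 0.451 within groups. Adcy1 is the protein-coding neighbour of Igfbp1 on the side away from Igfbp3 in the RefSeq annotation. For Igfbp2 they were Vnn1 (0.949), a pantetheinase, Decr1 (0.938), an enzyme of fatty acid oxidation, and Abcg8 (0.935), a sterol transporter, with 0.800, 0.673 and 0.530 within groups. All libraries share the group structure that these values describe, and r was not tested.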

How the data were processed

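Per the labels' protocols, mRNA was selected from frozen liver, prepared with a Wafergen PrepX kit and sequenced on a NextSeq instrument. The submitters' processing notes name Partek, DESeq2 and the build rn6; for the aligner, counter, annotation and versions the sources used here give nothing. Values in the deposited table are signal values: the authors scaled each library's read counts by a single size factor. They are called normalized counts. Whole reads were recovered from them, with 100% of values in every library no further than 0.01 from an integer, and RPM were computed from these reads. All 16 columns were used, grouped by title.

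The test was limma-trend (limma 3.58.1, R 4.3.3) on log2(value + 1), two-sided, in a model of 4 group means (12 residual and 4.42 prior degrees of freedom). Genes with a mean of at least 14.7, which is 1 RPM of the median column total, were tested, with Benjamini-Hochberg adjustment over all 12791. Every adjusted p is limma's unless edgeR 4.0.16 or DESeq2 1.42.0, run on the recovered reads, is named. The fit was run on simulated data with known changes, in which all genes had the same spread beyond counting noise. Spread differed between genes in the real data, so that run checks the code and not the calls reported here.

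Alternatives were a pseudocount of 10, no filter or a filter at 5 RPM, rescaling by TMM or to RPM, array quality weights, the compared groups alone, edgeR, DESeq2 and leaving out each library. Added after seeing the data were log2 of the neural marker sum as a covariate, and leaving out the 3 neural-rich libraries. Rescaling moved the median of all genes by over 0.1 on the log2 scale in 2 comparisons of ADREX with SHAM: -0.10 under ozone by TMM and 0.11 in air by RPM. Members, the 3 gene lists and the marker lists were chosen with earlier results of these data known. All members were named, list genes where they passed the test, and for 3 members the 3 most correlated genes. Cyp2a1, Igf1r, Igfbp5, Igfbp7 and Srd5a1 were also named, as list genes that passed in no comparison but whose libraries did not overlap in at least 1. Levels were not compared between genes, since lengths were not used.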

Additional observations from a re-analysis of the deposited data

Results flagged for a closer look

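In 3 of 32 groups of 4 libraries (8 genes in 4 groups), 1 library stood apart from the others, its gap to the nearest of them being larger, relative to the group's range, than Dixon's 95% critical value. Chance alone marks about 1 group in 20. Ghr in ADREX ozone 82 was at 9826 normalized counts, while the other ADREX ozone libraries were at 8389 to 8582. Igfbp3 in ADREX ozone 84 was at 318, while the others of its group were at 216 to 230. Igfbp3 in SHAM air 4 was at 1019, while the others of its group were at 782 to 813. ADREX ozone 82 had the highest neural marker sum, 4813 RPM, and SHAM air 4 the fewest recovered reads, 8372891. Whether either bears on these values was not tested.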

How the results depend on the processing

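Over 50 changes of single genes and 1338 alternatives, 1171 kept direction and side of the threshold, 111 fell short of it, 14 newly passed and 42 changed sign, all 42 among changes that had not passed. Of the 8 genes, the number passed for ozone in SHAM was 1 with array quality weights. For ADREX against SHAM in air it was 3 without the filter and 2 with the neural covariate, 7 with DESeq2, 6 with a pseudocount of 10, the filter at 5 RPM, array quality weights or without the 3 neural-rich libraries, 4 in the other alternatives, and 2 to 6 without single libraries. Under ozone it was 2 with the compared groups only and 2 without the 3 neural-rich libraries, 5 with array quality weights, 3 or 4 in the other alternatives, and 2 to 4 without single libraries. The cause of these shifts was not tested.

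Log2 changes that reversed were as follows. With the neural covariate, ozone in SHAM gave 0.012 for Igf1, 0.0076 for Igfbp1, -0.036 for Igfbp2 and 0.043 for Igfbp3, and ozone in ADREX gave 0.11 for Igf1, 0.12 for Igfals, -0.37 for Igfbp2 and 0.10 for Stat5b. ADREX against SHAM under ozone gave 0.28 for Stat5b. Without the 3 neural-rich libraries the values were 0.0048 for Igfbp3 (ozone in SHAM), -0.019 for Ghr, 0.092 for Igf1 and 0.31 for Igfals (ozone in ADREX), 0.040 for Igfbp2 (difference) and 0.080 for Stat5b (ADREX against SHAM under ozone). For ozone in ADREX, TMM gave -0.042 for Ghr and -0.054 for Igfbp2, edgeR -0.052 and -0.41, DESeq2 -0.022 and -0.40, and array weights 0.057 for Stat5b. The difference for Igf1 was -0.059 by edgeR and -0.029 by DESeq2.

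Without single libraries, ozone in SHAM ranged from -0.30 to 0.0048 for Igfbp3. Ozone in ADREX ranged from -0.051 to 0.11 for Ghr, -0.38 to 0.082 for Igfals, -0.57 to 0.68 for Igfbp2, -0.24 to 0.0089 for Igfbp4 and -0.48 to 0.19 for Stat5b. The difference ranged from -0.079 to 0.24 for Igf1 and -0.93 to 0.33 for Igfbp2. ADREX against SHAM under ozone ranged from -0.21 to 0.048 for Ghr and -0.28 to 0.23 for Stat5b. The cause of these reversals was not tested. With 4 libraries a group, the 95% interval of the Igfbp2 ozone effect in ADREX ran from -1.29 to 1.36, so changes of that size were not detectable. No paired analysis was possible because the replicate numbers differ between all groups.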
